A study of Mus musculus with 5 samples.

Results

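The proteasome is the barrel-shaped protease that degrades proteins marked with ubiquitin, and its genes are described here in the striatum of mice with a Huntington's disease (HD) transgene, with and without overexpressed miR-196a. The members are the array probes whose platform symbol begins with Psma, Psmb, Psmc, Psmd, Psme, Psmf or Psmg and a number, without the immunoproteasome subunits Psmb8, Psmb9 and Psmb10, and with the brightest probe taken for each gene. The pattern found 48 of 26423 probes, which stand for 44 of 17742 named genes. One of them, Psmc3ip, encodes a meiotic recombination factor and no part of the proteasome, so 43 genes are described below and Psmc3ip is given apart.

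The array measured striatal RNA of 5 male FVB mice at 12 months of age, 1 deposited value per probe and mouse. All 5 mice carry a transgene in which a human ubiquitin promoter drives GFP joined to HTT exon 1 with 84 CAG repeats. The 3 mice called HD_miR196a also carry a miR-196a precursor behind a human ubiquitin promoter, obtained by crossing the 2 lines, and the 2 mice called HD do not. Both transgenes therefore use a promoter that is not restricted to neurons, and no mouse without the HD transgene was analysed here. miR-196a was not itself among the measurements analysed here. Its mature strand is given from RefSeq (GRCm38.p6) because it is what differs between the groups by design, with the seed, bases 2 to 8, in capitals.
mmu-miR-196a-5p: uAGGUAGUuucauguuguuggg

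In the cell, 4 stacked rings form the core particle, with alpha subunits (Psma genes) in the outer rings and beta subunits (Psmb genes) in the inner ones. Psmb5, Psmb6 and Psmb7 carry the chymotrypsin-like, caspase-like and trypsin-like active sites. A regulatory particle sits on the core: its base holds the ATPases that unfold the substrate (Psmc genes), and its lid removes the ubiquitin chain. Activators of the Psme family can take the place of the regulatory particle, and dedicated chaperones assemble both parts. Mutant huntingtin forms inclusions that contain ubiquitin and proteasome subunits, which is why this protease is followed in HD models.

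Values below are log2 of quantile-normalized intensity, and every difference is HD_miR196a minus HD. A difference of 0.5 on this scale is a 1.41-fold change. Tests are limma's moderated test, two-sided, with Benjamini-Hochberg adjustment over all 26423 probes, and intervals are 95% intervals of the difference from that fit. Background was read from olfactory receptor probes, whose genes the striatum hardly uses, and their means had a 95th percentile of 8.31. Of the 43 genes, 36 had a mean above it. The 7 below it were Psma5, Psma8, Psmb11, Psmd11, Psmd9, Psme2 and Psmf1. Psma8 and Psmb11 are known from testis and thymus, whereas Psma5 is a subunit of every core particle, so its low probe cannot be read as a low level of the gene. The same limit holds for the lid gene Psmd11. Psma3, Psmb3 and Psme2b were not analysed here. The medium spiny neuron genes of a marker list had medians of 12.63 to 12.99 in the 5 mice, and none of the 7 measured was below background. The mice differed in cortical neuron genes, whose summed linear intensity was 5122 and 5626 in mouse 1 of the HD_miR196a and HD groups and 15605 to 25571 in the other mice.

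No proteasome gene was called. limma gave 0 of 43 at an adjusted p under 0.05, as for all probes (0.0% called). At an unadjusted p under 0.05 there was 1 of 43, Psmb7, beside 3.71% of all genes and 1.89% for those lower in HD_miR196a (4.16% of all probes in either direction). The median difference over the 43 genes was -0.04, beside -0.004 over all genes. Of the 43, 14 were higher and 29 lower in HD_miR196a mice, and over all genes 51.0% were lower. With median centring in place of quantile normalization the split became 6 higher and 37 lower, where the median of genes above background also lay lower, at -0.07. Without any scaling 0 were higher, with the median of all genes at -0.21. After quantile normalization it became 22 higher and 21 lower without mouse 1 of each group, 9 higher without HD mouse 2 and 21 higher without HD mouse 1. The split between higher and lower thus depended on the scaling and on single mice. The groups did not overlap for 7 of 43 genes, all 7 lower in HD_miR196a, beside 20.7% of all genes (10.7% for those lower in HD_miR196a).

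After quantile normalization, the intervals limit how far these genes could differ. They do not cover the fit without scaling, where the median of all genes was -0.21. The median half-width of the 95% interval was 0.30 for the 43 genes, 0.27 for the 36 above background and 0.33 for all genes above background. For 29 of the 36 the whole interval lay within 0.5 of zero, so differences above 1.41-fold are outside it, and the same held for 64.6% of all genes above background. The SD among the 3 HD_miR196a mice had a median of 0.08 over the 36 genes, beside 0.12 over all genes above background. These sets were not matched for signal. The 36 genes had median levels of 12.26 to 12.43 in the mice, beside 10.28 for all genes above background. Between mice of different groups the median absolute difference over the 43 genes was 0.09 to 0.11, between HD_miR196a mice 0.10 to 0.13, and between the HD mice 0.09. Mice of different groups were therefore about as alike in these genes as mice of the same group.

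**Figure D1:**
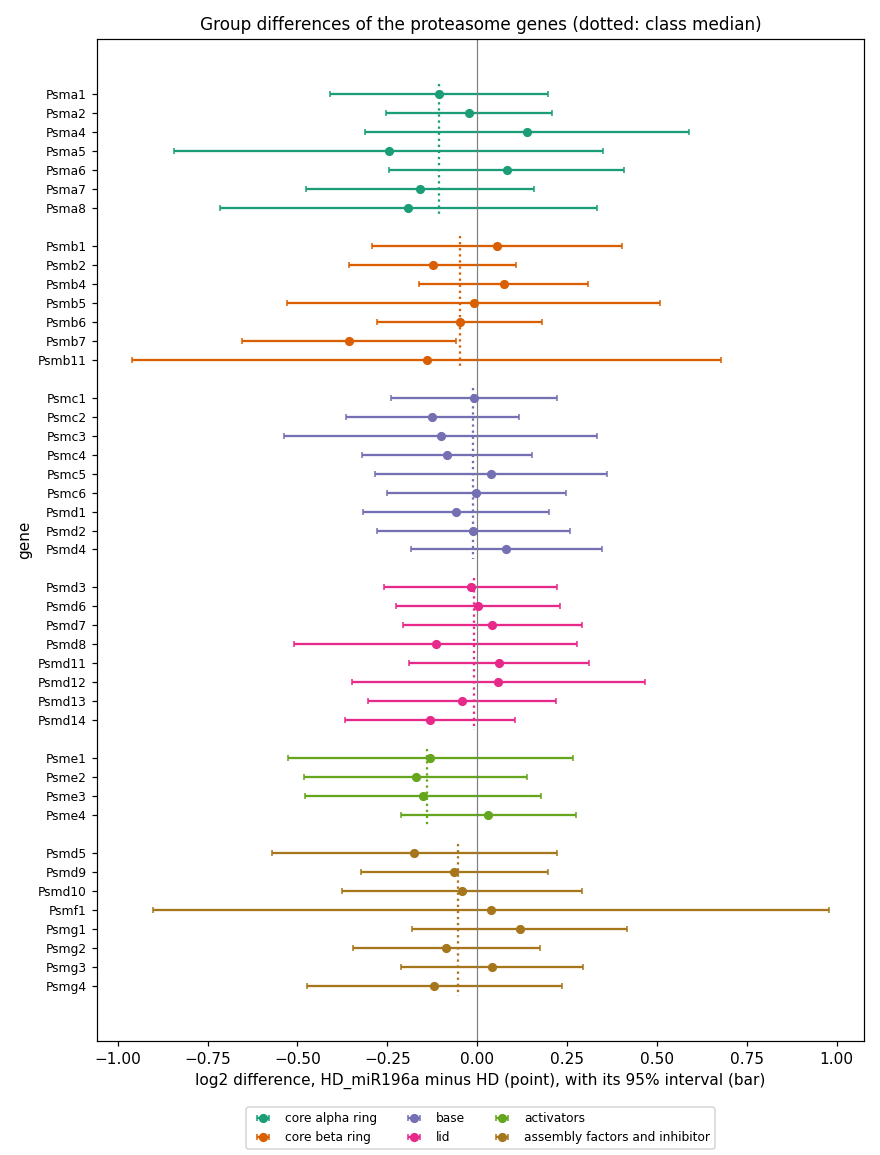
Log2 difference, HD_miR196a minus HD, of each of the 43 genes (points) with its 95% interval (bars), by subunit class; dotted lines are class medians. The intervals of 42 genes include zero, that of Psmb7 runs from -0.66 to -0.06, and the class medians lie between -0.14 for activators and -0.01 for base and lid.

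Psmb7, the trypsin-like subunit of the core, was the member with the smallest p. In mouse order, here and below, it measured 10.44, 10.19 and 10.35 in the HD_miR196a group against 10.69 and 10.68 in the HD group. All 3 HD_miR196a mice lay below both HD mice. The means were 10.33 ± 0.13 (SD, n = 3) and 10.68 ± 0.005 (SD, n = 2), a difference of -0.36 ± 0.11 (SE), or 0.780-fold. limma gave an unadjusted p of 0.0276 and an adjusted p = 0.979, and the exact permutation test over mice gave p = 0.1, the smallest that 10 splits allow. By unadjusted p it ranked 345 among the 17742 genes. Its difference stayed between -0.60 and -0.29 over the alternatives, with adjusted p from 0.362 to 1.0. The -0.60 and the 0.362 came from the fit without scaling, where the median of all genes was -0.21. The next lowest difference was -0.43, with median centring. Psmb7 rests on 1 probe, and no second probe of it was analysed here. With an HD_miR196a mouse left out, limma's unadjusted p was 0.0275 without mouse 1, 0.0679 without mouse 2 and 0.0564 without mouse 3. The difference was -0.35 without HD mouse 1 and -0.36 without HD mouse 2, each fit leaving 1 mouse in that group.

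The other catalytic subunits gave no such separation. Psmb6, the caspase-like subunit, measured 14.25, 14.30 and 14.27 in HD_miR196a mice and 14.36 and 14.28 in HD mice. The groups overlapped, and the interval of the difference ran from -0.28 to 0.18. Psmb5, the chymotrypsin-like subunit and the target of the drug bortezomib, measured 11.75, 11.93 and 12.34 in HD_miR196a mice and 12.02 and 12.01 in HD mice. The HD mice lay between the HD_miR196a mice, whose range of 0.59 was the widest among the 36 genes above background. The difference was -0.01 with an interval from -0.53 to 0.51.

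**Figure D2:**
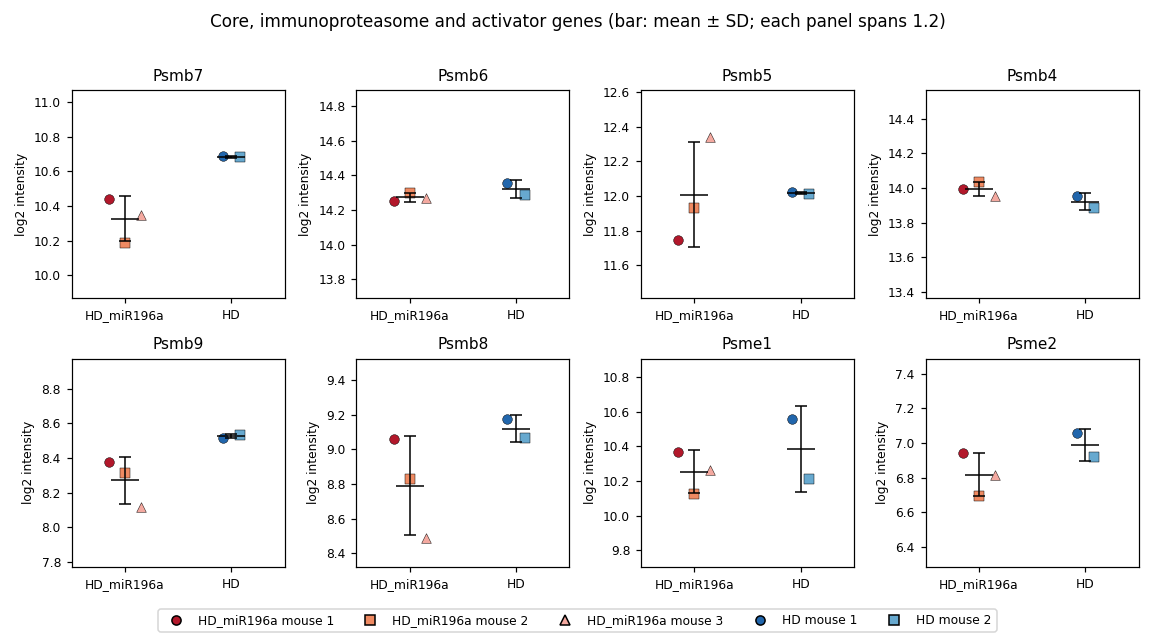
Log2 intensity in each mouse (points) with the group mean and SD (bars) for 4 core beta subunits, 2 immunoproteasome subunits and 2 activator subunits; each panel spans 1.2 units around its own mean. Psmb7, Psmb9 and Psmb8 have every HD_miR196a mouse below both HD mice, though the nearest mice of Psmb8 read 9.057 and 9.065. Such a separation held for 10.7% of all genes, and the Psmb9 mean of 8.37 lies close to the background percentile of 8.31. Psmb5 has HD_miR196a mice at 11.75 to 12.34 on either side of the HD mice.

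Among the remaining beta subunits, Psmb2 measured 11.70, 11.74 and 11.80 against 11.88 and 11.86. These groups did not overlap either, at a difference of -0.12 ± 0.09 (SE). Psmb4 (0.07) and Psmb1 (0.05) differed in the other direction, with groups that overlapped. The probe of Psmb11, the thymus subunit, measured 3.91, 4.71 and 4.50 against 4.22 and 4.81, which is background. Over the 7 beta ring genes, 5 were lower and 2 higher, with a median difference of -0.05. That median was 0.07 without HD_miR196a mouse 1 and -0.15 without HD_miR196a mouse 3.

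The alpha ring genes form the gate through which substrates enter. Of 7 measured, 5 were lower and 2 higher, with a median difference of -0.11 and none called. Over the 5 above background the median was -0.02. Psma7 had the smallest p of the class and measured 12.72, 12.48 and 12.54 in HD_miR196a mice and 12.82 and 12.66 in HD mice. HD_miR196a mouse 1 lay between the HD mice, and the difference was -0.16 ± 0.12 (SE, adjusted p = 0.979). Psma2 varied least in the class, at 13.52, 13.61 and 13.57 against 13.59 and 13.59. Psma4 was the member with the highest difference of all 43, 0.14 ± 0.17 (SE), and it rested on HD_miR196a mouse 3, at 12.60 beside 12.11 to 12.27 in the other mice. The Psma5 probe measured 3.52, 4.13 and 4.14 against 4.15 and 4.20. Its groups did not overlap, but the values are at background.

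In the base, 7 of 9 genes were lower and 2 higher, with a median difference of -0.01. The 6 ATPase genes had differences between -0.12 and 0.04. Psmc2, the ATPase with the smallest p in the class, measured 13.73, 13.70 and 13.80 in HD_miR196a mice and 13.90 and 13.83 in HD mice, and the groups did not overlap. The difference was -0.12 ± 0.09 (SE, adjusted p = 0.979). Psmc4 was also separated, at 11.48, 11.59 and 11.49 against 11.59 and 11.62, though the nearest mice of the 2 groups both read 11.59. Psmc1 and Psmc6 differed by -0.01 and -0.003, with ranges over the 5 mice of 0.09 and 0.13. Psmc3 had the widest range of the class, 0.44, and was lowest in HD_miR196a mouse 1 (12.84) and highest in HD mouse 2 (13.29). Of the scaffold and receptor subunits, Psmd1 measured 13.76, 13.75 and 13.87 against 13.91 and 13.79. Psmd2 differed by -0.01 and the ubiquitin receptor Psmd4 by 0.08.

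The lid split evenly, 4 genes higher and 4 lower, with a median difference of -0.01. Over the 7 above background, 3 were higher and 4 lower, with a median of -0.02. Psmd14, the metalloprotease that cuts the ubiquitin chain from the substrate, had the smallest p of the class. It measured 12.99, 12.92 and 12.92 in HD_miR196a mice and 13.03 and 13.12 in HD mice, without overlap, and differed by -0.13 ± 0.09 (SE, adjusted p = 0.979). Psmd13 measured 13.38, 13.53 and 13.41 against 13.53 and 13.44, and these groups overlapped. Psmd6 had the narrowest range of all 43 genes, 0.08 over the 5 mice, with a difference of 0.001. The Psmd11 probe, below the background percentile, measured 7.30, 7.30 and 7.16 against 7.19 and 7.20. Psmd12 and Psmd7 were higher by 0.06 and 0.04, and Psmd3 differed by -0.02.

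Of the activators, 3 of 4 were lower and the class median was -0.14, the lowest of the 6 classes. Psme1 and Psme2 encode the 2 subunits of the interferon-inducible activator PA28. Psme1 measured 10.37, 10.12 and 10.27 in HD_miR196a mice and 10.56 and 10.21 in HD mice. Psme2 measured 6.94, 6.69 and 6.81 against 7.05 and 6.92, below the background percentile. In both genes HD mouse 1 was the highest and the groups overlapped, with differences of -0.13 ± 0.15 and -0.17 ± 0.12 (SE). Psme3, which forms a nuclear activator, differed by -0.15 and Psme4, the single-chain activator PA200, by 0.03. The class median rested on HD mouse 1, since it was -0.03 without that mouse. The class medians were not tested against each other, and without HD mouse 1 they lay between -0.08 for the alpha ring and 0.05 for the assembly factors.

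The interferon-inducible subunits Psmb8 and Psmb9, which replace Psmb5 and Psmb6 in the immunoproteasome, are given beside PA28. Psmb9 measured 8.38, 8.31 and 8.12 against 8.52 and 8.53, and Psmb8 measured 9.06, 8.83 and 8.49 against 9.17 and 9.06. Both were without overlap and lower, by -0.25 ± 0.12 and -0.33 ± 0.19 (SE), and neither was called (adjusted p = 0.979 for both). Over all genes, groups did not overlap for 20.7%, and for 10.7% with HD_miR196a lower. The Psmb9 mean of 8.37 lay close to the background percentile of 8.31. For Psmb8 the nearest mice of the 2 groups read 9.057 and 9.065, so the separation was narrow. Psmb10, which replaces Psmb7, differed by 0.02.

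Assembly factors and the inhibitor Psmf1 were lower for 5 of 8 and higher for 3, with a median difference of -0.05. The 3 measured chaperones of the base were lower, as were 51.0% of all genes, and Psmd9 among them was below background. Psmd5 measured 10.99, 10.73 and 10.59 against 11.003 and 10.886, a difference of -0.18 ± 0.15 (SE). Psmd10, also known as the oncoprotein gankyrin, measured 11.51, 11.38 and 11.50 against 11.65 and 11.36, with groups that overlapped. It differed by -0.04, by 0.10 without HD mouse 1 and by -0.19 without HD mouse 2. Psmd9 differed by -0.06. The core chaperones Psmg1 (0.12) and Psmg3 (0.04) were higher, and Psmg2 (-0.09) and Psmg4 (-0.12) lower. Psmg2 had groups that did not overlap, at 10.54, 10.71 and 10.66 against 10.72 and 10.72. Psmf1, at background, measured 5.40, 4.86 and 4.53 against 5.29 and 4.50. The class median was 0.05 without HD mouse 1 and -0.14 without HD mouse 2, so its sign rested on which HD mouse was kept.

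Single mice differed within both groups. HD mouse 1 had the lowest value of the 5 mice in 0 of 43 genes, beside 17.3% of all genes, and the highest value in 14, or 32.6%, beside 21.1% of all genes. HD_miR196a mouse 1 was lowest in 15 of 43, or 34.9%, beside 22.7% of all genes. Of these 15, 8 were among the 14 core ring genes, and the 8 include Psma5 and Psmb11, which are at background. HD_miR196a mouse 3 was highest in 11, or 25.6%, beside 18.2% of all genes. Its gap to the next mouse was 0.33 for Psma4, 0.32 for Psmb5, 0.18 for Psmb1 and 0.16 for Psmd12, and 0.08 or less for the other 7. The SD among HD_miR196a mice had a median of 0.13 over the 5 alpha ring genes above background and 0.09 over the 6 beta ring genes, beside 0.07 for the 9 base and 0.07 for the 7 lid genes. That order was not tested.

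**Figure D3:**
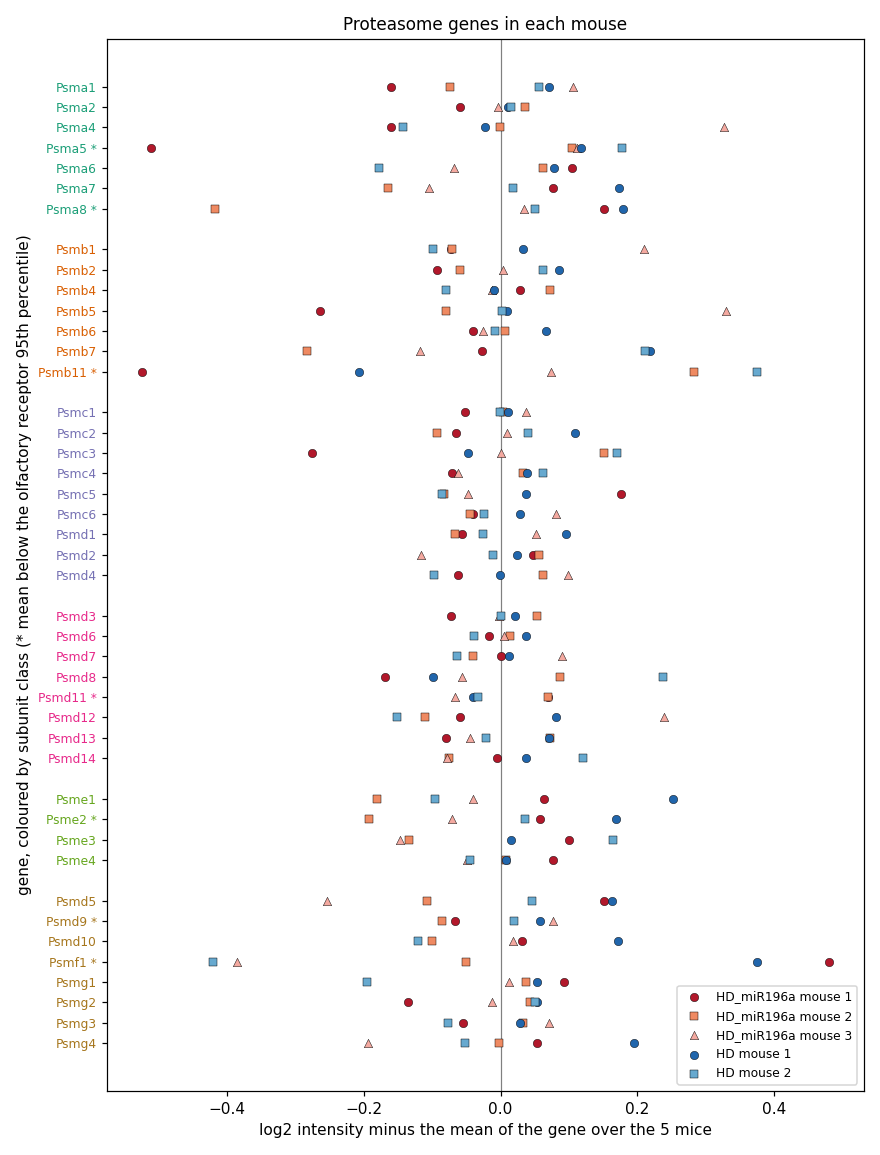
Log2 intensity of each gene in each of the 5 mice (points) minus the mean of that gene over the mice, by subunit class; asterisks mark the 7 genes with a mean below background. Psmb7 has its HD mice apart on the right, Psma4 and Psmb5 have HD_miR196a mouse 3 apart, and most other genes have the groups mixed.

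For 4 genes a second, dimmer probe measured the same transcript name. HD_miR196a mouse 3 was the highest mouse on both probes of Psmb1, at 13.45 and 11.29. HD mouse 2 was the highest and HD_miR196a mouse 1 the lowest on both probes of Psmd8. HD mouse 1 was the highest on both probes of Psmd10 and of Psmg4. The mouse with the highest value was thus the same for both probes in all 4 genes. The lowest mouse was the same for Psmd8 and Psmd10 but not for Psmb1 and Psmg4. It was HD mouse 2 on the brighter and HD_miR196a mouse 1 on the dimmer probe of Psmb1. For Psmg4 it was HD_miR196a mouse 3 on the brighter and HD mouse 2 on the dimmer probe. The group differences of the dimmer probes were 0.04 for Psmb1, -0.01 for Psmd10, -0.23 for Psmd8 and 0.01 for Psmg4, beside 0.05, -0.04, -0.12 and -0.12 on the brighter ones. None of the 8 probes was called.

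**Figure D4:**
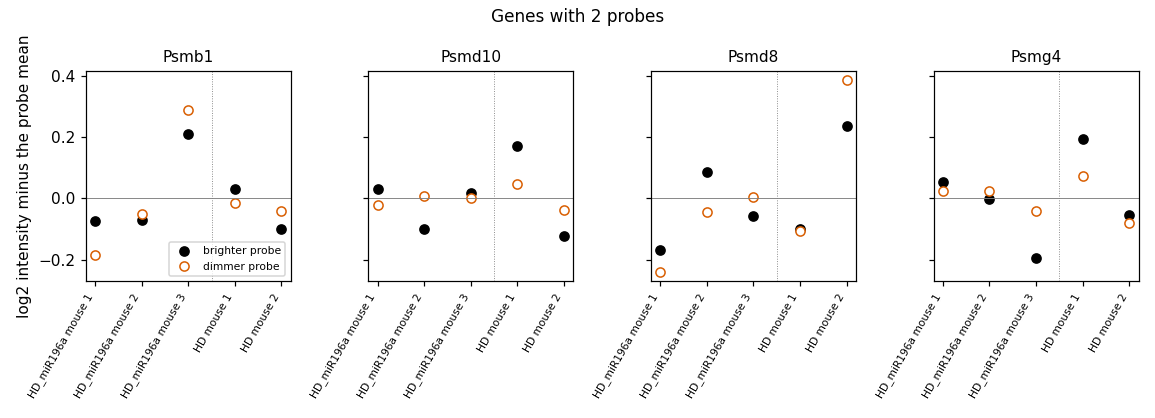
Log2 intensity in each mouse minus the mean of the probe over the 5 mice, for the brighter (filled) and dimmer (open) probe of 4 genes; the dotted line parts HD_miR196a from HD mice. Both probes peak in the same mouse in each gene, HD_miR196a mouse 3 for Psmb1, HD mouse 2 for Psmd8 and HD mouse 1 for Psmd10 and Psmg4.

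**Figure D5:**
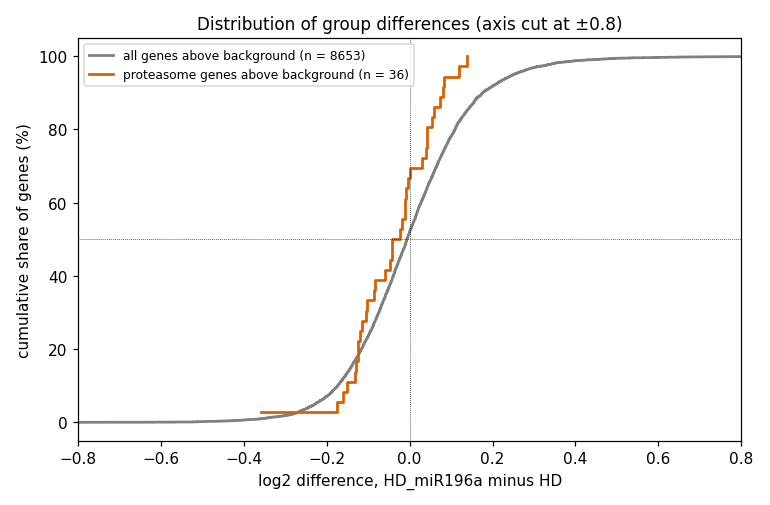
Cumulative share of genes (percent) by log2 difference, HD_miR196a minus HD, for the 36 proteasome genes and all 8653 genes above background. The proteasome curve is steeper, crosses its median at -0.03 beside -0.01 for all genes, and spans -0.36 (Psmb7) to 0.14 (Psma4). The sets were not matched for signal.

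Proteasome genes are known targets of the transcription factor NFE2L1, which restores their transcription when the proteasome is inhibited and binds antioxidant response elements. The Nfe2l1 probe itself measured 11.88, 11.71 and 11.86 against 11.83 and 11.86, a difference of -0.04 ± 0.10 (SE). RefSeq promoter windows (GRCm38.p6, 250 bases before to 50 after a start) were matched for 35 of the 43 genes, 38 windows in all. The remaining genes are Psma8, Psmb1, Psmb2, Psmb7, Psmc3, Psmd3, Psmd7 and Psmg2. The element core TGACNNNGC, searched on both strands, occurred in 6 of 38 windows, 15.8%, beside 13.0% of 21262 windows of protein-coding genes. The letters CCAAT, either strand, were in 28.9% of windows beside 38.2%, and GGGCGG in 60.5% beside 46.2%, where the median GC content was 59.0% and 56.3%. The windows with TGACNNNGC belong to Psmb5, Psmb6, Psmc6, Psmd9, Psmd12 and Psme4, whose median difference was -0.01, beside -0.04 for the 29 genes without it. The 250 bases before the start of the catalytic subunits Psmb5 (chr14:54617996-54618245, minus strand) and Psmb6 (chr11:70525107-70525356, plus strand) show where the match lies, in capitals.
Psmb5: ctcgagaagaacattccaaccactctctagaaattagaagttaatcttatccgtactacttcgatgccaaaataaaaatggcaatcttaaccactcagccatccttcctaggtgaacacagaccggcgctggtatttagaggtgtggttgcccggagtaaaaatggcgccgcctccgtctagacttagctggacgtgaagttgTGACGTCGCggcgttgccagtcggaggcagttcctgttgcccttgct
Psmb6: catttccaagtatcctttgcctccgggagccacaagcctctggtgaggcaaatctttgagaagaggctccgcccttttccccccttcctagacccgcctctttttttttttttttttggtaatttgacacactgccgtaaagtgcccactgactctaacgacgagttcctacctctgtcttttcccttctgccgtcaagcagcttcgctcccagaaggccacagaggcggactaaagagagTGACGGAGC
In Psmb5 the match begins 47 bases before the start and in Psmb6 9 bases before it. A match describes letters only and is no evidence of binding.

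Other genes of the ubiquitin-proteasome pathway were read from the same fit. Of 37 genes on a list, 28 were measured, 13 higher and 15 lower, with a median difference of -0.03 and none called. The 4 with the smallest p were Ddi1, Psmb9, Ecpas and Stub1. Ecpas, a factor that tethers the regulatory particle to the core, measured 11.41, 11.40 and 11.38 against 11.52 and 11.61, without overlap, and differed by -0.17 ± 0.09 (SE, adjusted p = 0.979). Stub1, the ubiquitin ligase CHIP, differed by 0.29 ± 0.16 with groups that overlapped. Its mean of 6.90 lay below the background percentile of 8.31. The Stub1 difference was 0.11 without HD mouse 1 and 0.48 without HD mouse 2. The Ddi1 probe was near the floor, at 3.05, 3.09 and 3.02 against 2.38 and 2.38 (adjusted p = 0.67). The lid subunit Sem1 and the ubiquitin receptor Adrm1, outside the symbol pattern, differed by -0.02 and -0.08, the assembly chaperone Pomp by 0.06, and the proteasome-bound deubiquitinases Usp14 and Uchl5 by -0.04 and 0.13. Psmc3ip measured 10.42, 10.58 and 10.81 against 10.58 and 10.58.

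Marker genes of cell types are given beside these values. Medium spiny neuron genes were higher in HD_miR196a mice for 6 of 7 measured, with a summed linear intensity of 70728 to 77189 in HD_miR196a and 57044 to 61660 in HD, and none of them was at background. Oligodendrocyte genes were higher for 5 of 5 measured, at 40298 to 51836 against 33436 to 41092. HD_miR196a mouse 1 was the highest mouse in all 5, and mouse 3 of that group (40298) lay below HD mouse 1 (41092). Astrocyte genes were higher for 3 of 5 and endothelium genes for 3 of 4. The astrocyte gene Gfap differed by -0.57 (limma adjusted p = 0.979) without overlap, as did the groups for 20.7% of all genes. Its value in HD_miR196a mouse 2, 8.09, lay below the background percentile of 8.31. The other astrocyte genes Gja1, S100b, Slc1a2 and Aqp4 differed by 0.11, 0.02, 0.01 and -0.08. Choroid plexus genes were higher for 1 of 3, with 2 of them below background. Their sum was 1990 in HD_miR196a mouse 1 and 508 to 635 in the other mice. Microglia genes were higher for 3 of 5 measured, though their sum was 11199 to 12702 against 12343 to 13545. Their part in the values of Psmb7 and the other members was not tested, and in bulk tissue fewer cells of a type and less RNA per cell cannot be told apart. With the cortical neuron list as a covariate Psmb7 differed by -0.36.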

How the data were processed

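The array, of a single colour, measured striatal RNA of 5 mice. The deposited values are linear intensities, and 2 technical repeats per mouse were combined by the authors, per the labels, so n counts mice. RNA was amplified and labelled with Cy5, per the labels' protocols. Values slightly below 0 show that background had been subtracted. What scanner, software and scaling were used is not stated in the labels or file. Medians of the deposited values lay between 160.0 and 166.3 in HD_miR196a and between 184.3 and 185.6 in HD mice.

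Intensities were quantile normalized, floored at 1 and log2 transformed, then fitted with limma 3.58.1 in R 4.3.3 (lmFit, eBayes, 3 residual and 1.75 prior degrees of freedom). Precision is limited by the number of arrays, and 3 against 2 mice cannot give an exact permutation p below 0.1. The fit was tested on simulated data.

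Of 26423 probes, 20377 had 1 symbol, none several and 6046 none. Of these symbols, 18213 matched RefSeq (GRCm38.p6) directly, 2126 by a synonym and 38 not at all. The members and lists were chosen with earlier results of these data known. Values in every mouse are given, by rule, for Psmb5, Psmb6 and Psmb7, members with an unadjusted p under 0.05, and in each class the members with the smallest p and with the highest and lowest signal. The 4 pathway genes with the smallest p are named too. Other members were named after their values were seen. Alternatives were scaling, floor, filters on dim probes, variance model, array weights, a block, a covariate, probe choice, thresholds and mice left out.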

Additional observations from a re-analysis of the deposited data

How the results depend on the processing

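No proteasome gene was called under any alternative run. Across all probes the count of 0 called became 2 at an adjusted p under 0.10, 2 with the floor raised to the median of olfactory receptor probes, 1 among the 19817 brightest probes, 3 with trend and robust settings, 429 when a difference of 1.5-fold or more and an unadjusted p under 0.05 were required, and 0 to 3 with 1 mouse left out. The unadjusted count of 1099 probes was 527 among the 13211 brightest, where fewer were tested, 3641 without scaling and 2020 with the mouse number as a replicate block. Without scaling the median of all genes was -0.21, that of the proteasome genes -0.27, and the medians of the alpha ring, base, lid, activators and assembly factors were -0.34, -0.26, -0.26, -0.34 and -0.27. In that fit 0 of 43 genes were higher and 10 had an unadjusted p under 0.05. The count of 14 higher became 6 with median centring, 22 without mouse 1 of each group and 9 to 21 with 1 mouse left out. The 1 gene at an unadjusted p under 0.05 became 3 with the higher floor (Psmb7, Psmb2 and Psmd14), 0 with the replicate block, 0 without mouse 1 of each group and 0 to 1 with 1 mouse left out. Leaving out 1 mouse gave a median of -0.06 to -0.002 over all proteasome genes, -0.14 to -0.04 for the alpha ring, -0.15 to 0.07 for the beta ring, -0.04 to 0.002 for the base, -0.03 to 0.02 for the lid, -0.21 to -0.030 for activators and -0.14 to 0.049 for assembly factors. Fits without an HD mouse assume that the lone one varies like the other group.

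The cause of these shifts was not tested. Equal mouse numbers occur for 2 pairs only, with correlations of 0.236 and 0.17 between deviations across probes. Over genes above background, the median absolute difference between mice of equal number was 0.12 for mouse 1 and 0.13 for mouse 2. It was 0.18 between HD_miR196a mouse 1 and HD mouse 2, and 0.16 between HD_miR196a mouse 2 and HD mouse 1. Among HD_miR196a mice it was 0.13 to 0.16, and between the HD mice 0.15. The numbers are not taken as a pairing, and whether they mark one was not tested. With the replicate block Psmb7 differed by -0.37 at an unadjusted p of 0.0613, and the block changed no adjusted call. Of 341 values of named genes under alternatives, 317 kept their sign without a call and 24 did not keep it, without a call in either fit. The 24 include Ddi1, Psma5 and Psmb11 with the higher floor, where all mice were at the floor and no difference remained.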
